A study of Mus musculus with 8 samples.

Results

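Glutathione synthesis, recycling and peroxidase genes were followed in the livers of mice fed alcohol, as 10 genes found by their symbols in the annotation of the array. *Gclc*, *Gclm* and *Gss* stood for synthesis, *Gsr* and *Ggt1* for recycling and breakdown, *Gpx1*, *Gpx3*, *Gpx4* and *Gpx6* for the peroxidases, and *Mgst3* for a microsomal enzyme with both transferase and peroxidase activity. Of these 10 genes, 8 were read by a probe-set that named no other gene, among the 23332 on the array. *Gclm* was named only together with *Ppia*, the gene of cyclophilin A, in 1 shared probe-set, and no probe-set was named for *Ggt1*. The arrays hybridized liver RNA from 8 wild type C57Bl6J males, 1 array for each animal, that were 6 weeks old when feeding began. The 4 alcohol-fed mice (WA-811, WA-817, WA-833 and WA-836) took a Lieber-DeCarli liquid diet whose alcohol was raised from 2.06% for 3 days through 4.18% for 4 days to 6.2% for 5 weeks, where it gave 35% of the calories, as the sample labels have it. The study's methods state a slightly different final alcohol level. The 4 control mice (WC-820, WC-824, WC-834 and WC-840) were pair-fed a liquid diet for the same 6 weeks in which maltose/dextrin replaced the alcohol calories. The RNA came from whole liver, so fewer cells of a type and less RNA per cell cannot be told apart in any value below.

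Glutathione is a tripeptide of glutamate, cysteine and glycine that liver makes in large amounts. Glutamate-cysteine ligase, of the catalytic subunit encoded by *Gclc* and the modifier subunit encoded by *Gclm*, joins glutamate to cysteine in the rate-limiting step, and glutathione synthetase (*Gss*) adds glycine. Peroxidases oxidize glutathione while they reduce hydrogen peroxide or lipid peroxides, glutathione reductase (*Gsr*) returns the oxidized form at the expense of NADPH, and gamma-glutamyltransferase (*Ggt1*) begins the breakdown of glutathione outside the cell. Alcohol metabolism in liver is known as a source of oxidants, and the antioxidant response element, bound by the factor Nrf2 (*Nfe2l2*), is known as a control element of several of these genes.

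RefSeq (assembly GRCm38.p6) gave windows around transcription starts for 8 of the 10 genes (14 windows), none of them for *Gclc* or *Gsr*. The windows of *Gss* (chr2:155592791-155593060, minus strand) and *Mgst3* (chr1:167393822-167394091, minus strand) are shown as examples from genes that rose. Those of *Gpx4*, which rose too, are not printed. The window of *Gclm* (chr3:122245307-122245576, plus strand) is shown because it holds a letter match to the core of the element named above. That of *Gpx6* (chr13:21311953-21312222, plus strand) is shown because its gene fell. Each line holds 250 bases before the start and 20 from the start onward, 5′ to 3′ on the strand of the gene, and capitals mark matches on either strand to TGACNNNGC (core of the antioxidant response element), GGGCGG (GC box), CCAAT or TATAAA.
Gss: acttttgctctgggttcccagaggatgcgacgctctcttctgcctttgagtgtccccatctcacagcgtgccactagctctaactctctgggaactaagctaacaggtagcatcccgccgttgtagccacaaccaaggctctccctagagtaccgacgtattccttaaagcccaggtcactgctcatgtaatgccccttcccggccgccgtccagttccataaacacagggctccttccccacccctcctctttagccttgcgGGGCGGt
Mgst3: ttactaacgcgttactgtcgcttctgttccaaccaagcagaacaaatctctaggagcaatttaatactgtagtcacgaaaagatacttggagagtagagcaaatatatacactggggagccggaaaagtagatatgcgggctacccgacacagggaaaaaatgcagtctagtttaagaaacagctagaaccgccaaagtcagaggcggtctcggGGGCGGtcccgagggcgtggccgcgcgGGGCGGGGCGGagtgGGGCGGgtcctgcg
Gclm: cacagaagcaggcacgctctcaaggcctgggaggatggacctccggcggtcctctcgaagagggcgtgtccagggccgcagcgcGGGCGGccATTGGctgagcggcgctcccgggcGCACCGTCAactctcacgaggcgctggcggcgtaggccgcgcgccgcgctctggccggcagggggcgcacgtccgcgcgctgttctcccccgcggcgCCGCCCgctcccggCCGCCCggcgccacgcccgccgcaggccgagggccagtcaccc
Gpx6: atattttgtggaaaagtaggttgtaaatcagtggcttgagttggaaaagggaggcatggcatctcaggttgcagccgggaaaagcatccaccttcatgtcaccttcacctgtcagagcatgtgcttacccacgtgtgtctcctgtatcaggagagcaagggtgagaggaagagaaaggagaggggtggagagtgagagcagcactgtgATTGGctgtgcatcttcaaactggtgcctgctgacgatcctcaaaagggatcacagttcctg

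Counted from the start site with no position 0, the *Gclm* window held 1 match to the antioxidant response element core, from -134 to -126 on the reverse strand, a motif found in 12.4% of all 32851 windows. None was found in the windows of *Gss*, *Mgst3*, *Gpx1*, *Gpx3*, *Gpx4* or *Gpx6*, and 3 of the 4 windows of *Ggt1* held it. The GC box, present in 35.7% of all windows, matched 4 times in *Mgst3*, where the copies from -9 to -4 and from -4 to 2 share a base. It matched 4 times in *Gclm* (the last, from 34 to 39, is not printed) and 1 time in *Gss*, from 14 to 19. Windows of *Gpx1*, *Gpx3*, *Gpx4* and *Ggt1* held it too, and that of *Gpx6* did not. The CCAAT box, in 37.4% of all windows, matched 1 time in *Gpx6*, from -42 to -38 on the reverse strand, and 1 time in *Gclm*. Windows of *Gpx3*, *Gpx4* and *Ggt1* held it as well, and those of *Gss*, *Mgst3* and *Gpx1* did not. The TATA box, in 13.6%, matched in a *Ggt1* window alone among the 14. No match of 1 motif overlapped a match of another. The full 300-base window of *Gclm* was 79.7% G and C, against 58.0% for *Gss*, 54.7% for *Mgst3* and a median of 52.7% over all windows.

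*Gclc* and *Gss* of the synthesis genes, *Gsr* of the recycling genes, *Mgst3* and the peroxidase *Gpx4* were higher in alcohol-fed liver, and the peroxidase *Gpx6* was lower. Values are log2 RMA values, the arrays' background-corrected and quantile-normalized signal, and a call is a limma Benjamini-Hochberg adjusted p under 0.05 over the probe-sets that reached 5.56 (log2) on at least 4 arrays. Of the 10 genes, 7 passed this filter at an unshared probe-set, 5 of which were higher on alcohol (*Gclc*, *Gss*, *Gsr*, *Gpx4* and *Mgst3*), 1 was lower (*Gpx6*) and 1 was not called (*Gpx1*), where 10.2% of all probe-sets past the filter were higher and 5.98% lower. The groups did not overlap for the same 5 genes above, beside 15.5% of probe-sets with all alcohol arrays above. Those of *Gpx6* did not overlap either, where 8.14% of probe-sets had all alcohol arrays below. Because *Gpx6* passed the filter through the 4 control arrays alone, its groups could not overlap once it had passed. Its separation therefore adds no support to its call. The median change of the 7 was 0.62 (log2), against 0.05 over all probe-sets past the filter. The 10 genes were chosen with earlier results of these data known, so no test over the list was made. At the stricter limits that the study used, an unadjusted P of 0.0001 with 1.5-fold, *Gclc* and *Gss* were higher and *Gpx6* lower, where 1.01% and 0.757% of probe-sets passed upward and downward. *Gpx6* passed the filter through the control arrays alone, so it was read in the fit without the filter as well, in which 2.09% of the 23332 probe-sets were higher and 1.22% lower and all 6 calls held.

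**Figure D1:**
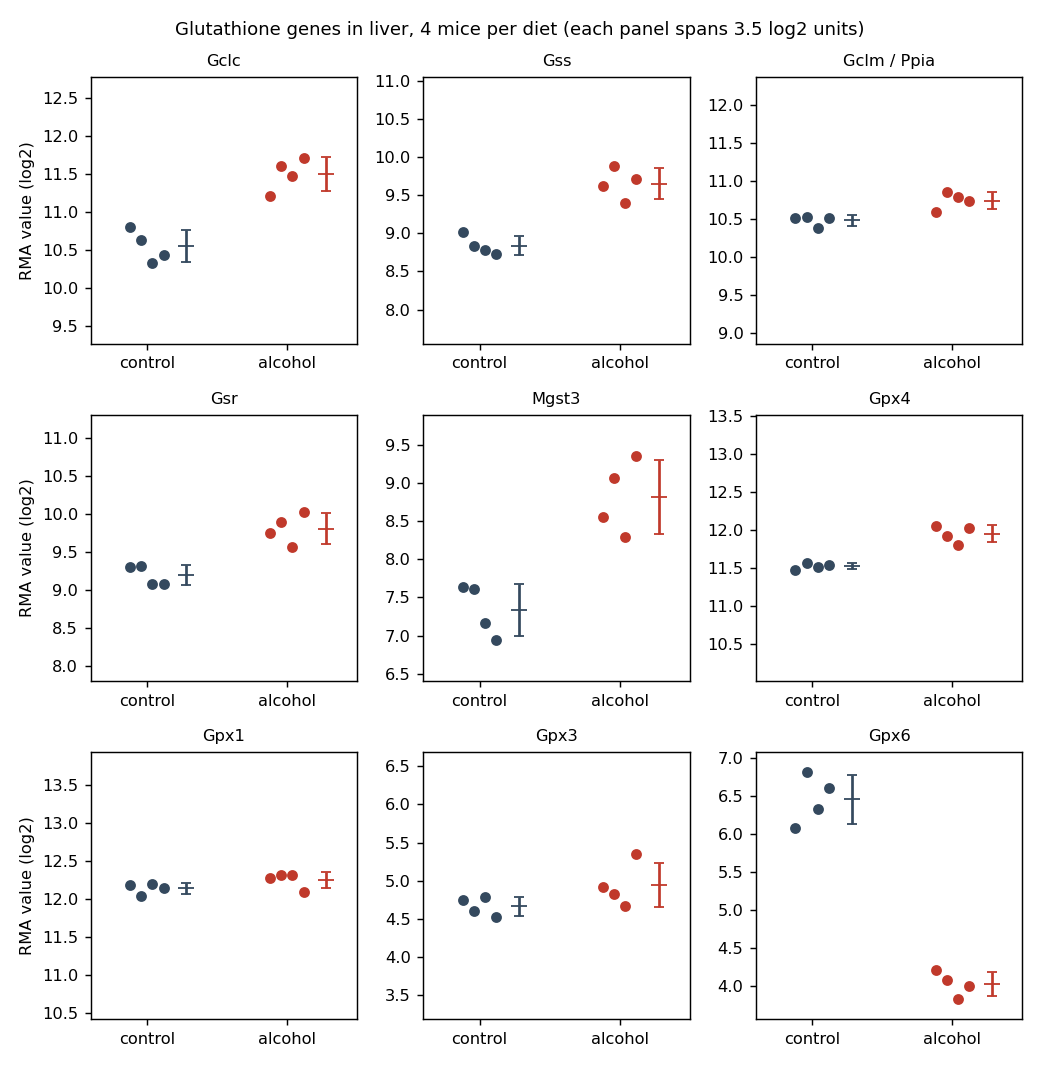
RMA values (log2) of the 9 probe-sets in each mouse, with 1 point per array, and the mean ± SD of each diet beside the points (n = 4). The alcohol points lie above every control point for *Gclc*, *Gss*, the shared *Gclm* probe-set, *Gsr*, *Mgst3* and *Gpx4*, below them for *Gpx6*, and overlap them for *Gpx1* and *Gpx3*.

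*Gclc*, the catalytic subunit of the rate-limiting enzyme, read 11.20, 11.60, 11.48 and 11.71 in the alcohol-fed mice and 10.80, 10.63, 10.33 and 10.44 in the controls, in the order of the mice given above. Every alcohol-fed mouse was above every control, with a gap of 0.40 between the groups. The mean went from 10.55 ± 0.21 to 11.50 ± 0.22 (SD, n = 4), a rise of 0.95 ± 0.13 (SE, log2) or 1.93-fold (95% interval 1.56 to 2.38, limma adjusted p = 0.00348). *Gss*, which completes the tripeptide, read 9.62, 9.88, 9.39 and 9.72 on alcohol and 9.01, 8.84, 8.78 and 8.72 on the control diet. Here too the groups were apart, by 0.38, with WA-833 the lowest of the alcohol-fed mice. The mean went from 8.84 ± 0.13 to 9.65 ± 0.20 (SD, n = 4), a rise of 0.81 ± 0.11 (SE, log2) or 1.76-fold (limma adjusted p = 0.00332). In RefSeq the long noncoding RNA *Gssos2* overlaps *Gss*.

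The probe-set shared by *Gclm* and *Ppia* cannot be given to either gene. It read 10.59, 10.85, 10.78 and 10.74 on alcohol and 10.51, 10.53, 10.37 and 10.51 on the control diet. The groups did not overlap but were 0.06 apart. The difference of 0.26 ± 0.08 (SE, log2) did not pass the threshold (limma adjusted p = 0.0528), and it passed in 2 of 17 other settings of the fit. The modifier subunit therefore has no measurement of its own here. The long noncoding RNA *Gm46822* and the pseudogene *Gm6061* overlap *Gclm* in RefSeq. Whether *Gclc* and *Gss* rose unequally was tested on the difference of their values in each mouse: it was -1.85 ± 0.23 on alcohol and -1.71 ± 0.12 on the control diet (SD, n = 4). The 2 diets differed by -0.13 (log2) with an exact two-sided permutation p of 0.371 (adjusted p = 0.495 over 4 pairs of genes, smallest p possible 0.0286), and a pair that separates alone cannot reach an adjusted p below 0.114 in this design.

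*Gsr*, which regenerates reduced glutathione, read 9.74, 9.89, 9.56 and 10.03 on alcohol and 9.30, 9.31, 9.07 and 9.08 on the control diet. The lowest alcohol-fed mouse, WA-833, was 0.25 above the highest control. The rise was 0.62 ± 0.11 (SE, log2), or 1.53-fold (limma adjusted p = 0.00835). In RefSeq a small nucleolar RNA and a pseudogene overlap *Gsr*. *Ggt1*, the other gene of this branch, had no named probe-set and was not analysed here. *Ggt6*, a relative of *Ggt1* in the gamma-glutamyltransferase family, rose by 0.56 ± 0.10 (SE, log2, limma adjusted p = 0.00729), while *Ggt5*, the neighbor of *Ggt1* in RefSeq, did not reach the level of the filter.

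*Mgst3*, a membrane enzyme that conjugates glutathione to leukotriene A and reduces lipid hydroperoxides, read 8.55, 9.07, 8.30 and 9.35 on alcohol and 7.63, 7.62, 7.16 and 6.95 on the control diet. The groups were 0.66 apart, and the values were spread more widely within each diet than those of *Gsr*. The rise was 1.48 ± 0.24 (SE, log2), or 2.79-fold (95% interval 1.91 to 4.07, limma adjusted p = 0.00598). The order of the alcohol-fed mice was the same for *Gsr* and *Mgst3*, from WA-836 through WA-817 and WA-811 down to WA-833. In both genes WC-820 and WC-824 were above WC-834 and WC-840, a split of the controls that *Gclc* and *Gss* showed too. Among 7758 genes past the filter, *Mgst3* had the pattern most like that of *Gsr*, and *Gsr* the one most like that of *Mgst3* (Pearson r = 0.995 over the 8 arrays), a likeness that includes the difference between the diets. *Prps1* came next for both, with r = 0.988 to *Gsr* and 0.991 to *Mgst3*.

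**Figure D2:**
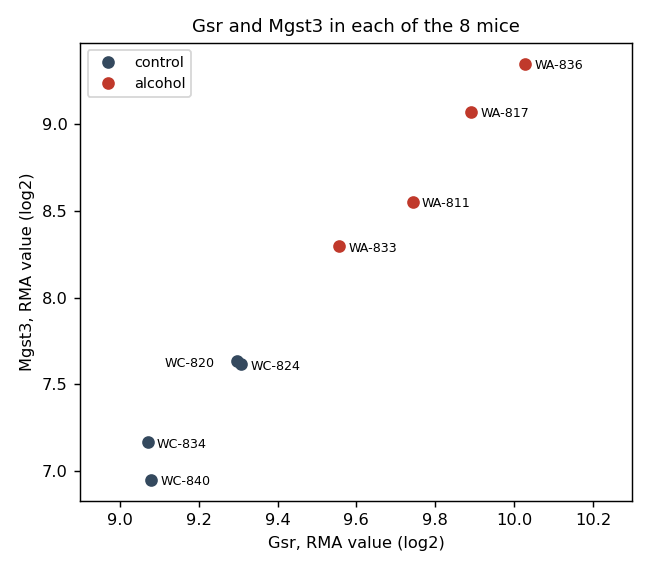
RMA values (log2) of *Gsr* on the horizontal axis and *Mgst3* on the vertical axis, with 1 labelled point for each of the 8 mice. The alcohol-fed mice run from WA-833 (9.56 and 8.30) to WA-836 (10.03 and 9.35), and the controls lie below 9.31 and 7.63 or at these values.

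Of the 4 peroxidase genes of the list, *Gpx4* was called higher, *Gpx6* lower, and *Gpx1* and *Gpx3* were not called. *Gpx4*, which reduces lipid peroxides within membranes, read 12.05, 11.92, 11.80 and 12.02 on alcohol and 11.47, 11.57, 11.52 and 11.53 on the control diet. Its control values were close together and all 4 alcohol-fed mice were above them. The rise was 0.43 ± 0.07 (SE, log2), or 1.34-fold (limma adjusted p = 0.0074). RefSeq names 2 pseudogenes of *Gpx4*, whose sequence could share probes with it. *Gpx1*, the cytosolic peroxidase of hydrogen peroxide, read 12.27, 12.31, 12.31 and 12.10 on alcohol and 12.18, 12.04, 12.19 and 12.14 on the control diet. WA-836, which was highest for *Gclc*, *Gsr* and *Mgst3*, was lowest for *Gpx1* among the alcohol-fed mice, and the groups overlapped. The difference of 0.11 ± 0.08 (SE, log2) was not called (95% interval -0.07 to 0.28, limma adjusted p = 0.371).

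*Gpx3*, the secreted peroxidase of plasma, lay below the filter, with 4.91, 4.83, 4.67 and 5.35 on alcohol and 4.75, 4.60, 4.78 and 4.52 on the control diet. WA-836 was the highest array, WA-811 and WA-817 were also above the highest control, and WA-833 lay among the controls. In the fit without the filter the difference was 0.28 ± 0.15 (SE, log2, limma adjusted p = 0.388), and without WA-836 it was 0.14. The changes of *Gpx1*, *Gpx3* and *Gpx4* were compared in 3 of the 4 pairs tested. *Gpx4* exceeded *Gpx1* in change by 0.32 (exact two-sided permutation p = 0.0571, adjusted p = 0.229) and *Gpx3* by 0.15 (exact permutation p = 0.229, adjusted p = 0.457). *Gpx3* exceeded *Gpx1* by 0.17 (exact permutation p = 0.571, adjusted p = 0.571), and without WA-836 this last difference was -0.02. With 4 mice on each diet a pair that separates alone cannot fall below an adjusted p of 0.114, since at least 3 of the 4 pairs would have to reach the smallest p to pass. Whether the change of *Gpx4* differs from that of *Gpx1* could therefore not be settled here.

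*Gpx6*, a peroxidase known from the olfactory epithelium that in mouse carries cysteine where the human enzyme has selenocysteine, read 4.21, 4.09, 3.83 and 4.00 on alcohol and 6.07, 6.81, 6.33 and 6.60 on the control diet. All 4 controls were above the level of the filter and all 4 alcohol-fed mice below it, with a gap of 1.86 between the groups. The level fell by 2.42 ± 0.16 (SE, log2), 5.35-fold, with a limma adjusted p of 8.73e-05 among the filtered probe-sets, where it ranked 7 by p, and 0.00126 in the fit without the filter. Since the alcohol values were low, the fold may be understated. In RefSeq the pseudogene *Gm11270* overlaps *Gpx6*, and *Gpx5* is the neighbor of *Gpx6*. The other members of the family, *Gpx2*, *Gpx5*, *Gpx7* and *Gpx8*, all lay below the filter with overlapping groups: *Gpx5* had means of 1.98 ± 0.08 on the control diet and 2.23 ± 0.23 on alcohol (SD, n = 4). *Omp*, which marks olfactory neurons, had means of 4.36 on the control diet and 4.07 on alcohol, with overlapping groups.

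**Figure D3:**
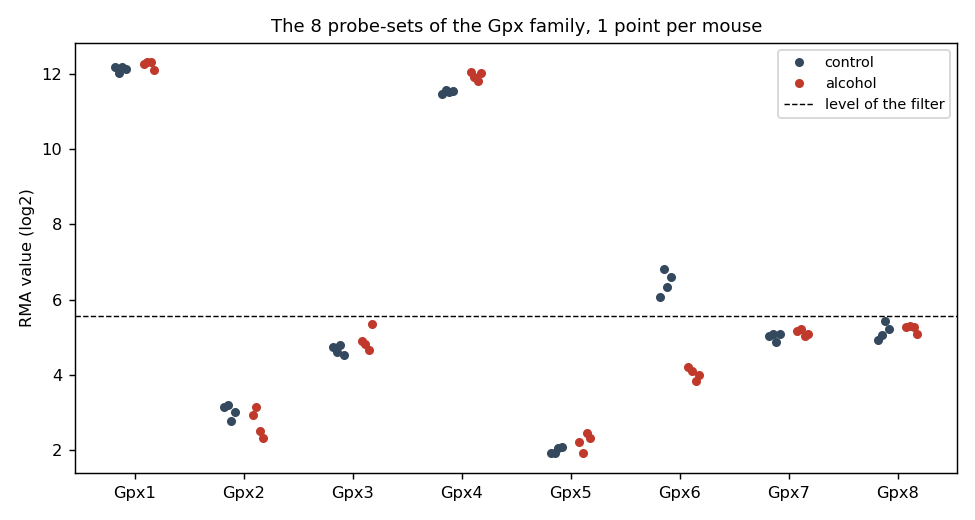
RMA values (log2) of the 8 probe-sets of the peroxidase family, with 1 point per mouse (control left, alcohol right) and the level of the filter, 5.56, as a dashed line. *Gpx6* crosses the line between the diets, and levels of different probe-sets cannot be set against each other because their probes differ.

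**Figure D4:**
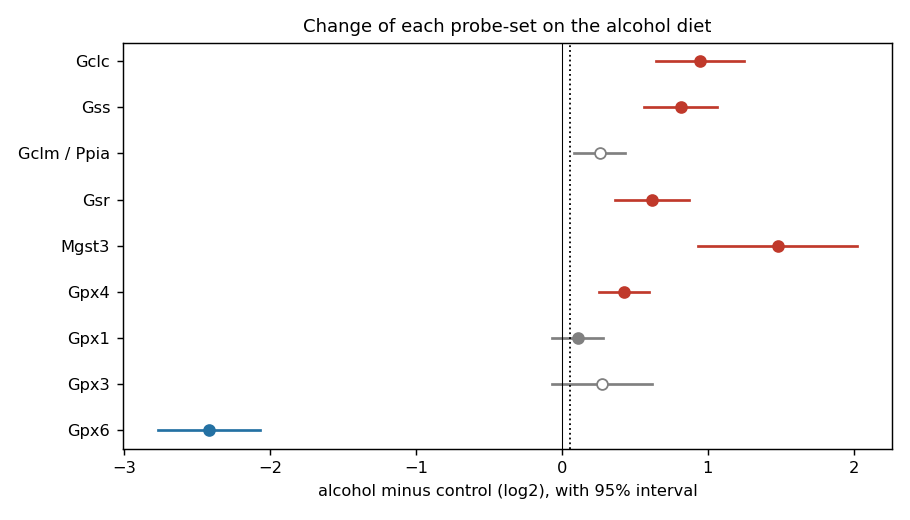
Change on the alcohol diet (log2, alcohol minus control) with its 95% interval for each probe-set, red for a rise and blue for a fall at an adjusted p under 0.05, and open points for the shared probe-set and for *Gpx3*, which lay below the filter. The dotted line marks the median of all probe-sets past the filter, 0.05, and *Gpx6* at -2.42 lies farther from it than *Mgst3* at 1.48.

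Within the alcohol diet the 5 genes that rose were not at the same height in every mouse. WA-836 was highest in 3 of the 5 and second in the other 2, and WA-833 was lowest in 4. Averaged over the 5 genes, the excess over the control mean was 1.08 (log2) in WA-836, 0.985 in WA-817, 0.75 in WA-811 and 0.62 in WA-833. Over all 1059 probe-sets that rose, WA-833 was the lowest alcohol array for 40.0%, while WA-817 was the highest for 38.7% and WA-836 for 32.0%. Nothing in this order was tested. Among the controls, WC-820 was highest in 3 of the 5 genes and WC-824 in 2.

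The remaining genes with patterns most like each member, by Pearson r over the 8 arrays with the diets included, were as follows. *Gclc* was closest to *Lmf2* (0.991), *Atraid* and *Cds2*, and *Gss* to *Idh2* (0.993), *Tuba8* and *Rab3d*. *Idh2*, the mitochondrial isocitrate dehydrogenase that makes NADPH, rose by 0.76 (log2). *Gpx4* was closest to *Adam11* (0.993), *Akip1* and *Flywch1*, and *Gpx6* to *Fancl* (0.989), *Eif4e* and *Spc24*, whose changes on alcohol were -0.84, -1.06 and -1.03 (log2). The closest gene to *Gpx1* was *Cyp4f13*, at a lower r of 0.963. The third gene for *Gsr* was *Sypl* and that for *Mgst3* was *Pigu*.

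Other genes of the pathway were counted in 10 lists that held 116 genes, of which 103 could be read at an unshared probe-set and 75 passed the filter. Of these 75, 19 were higher and 4 lower on alcohol, where 10.2% of all probe-sets past the filter were higher and 5.98% lower, and their median change was 0.055 (log2), beside 0.053 for all probe-sets past the filter. The count of 19 was 10 without WC-824, 12 without WC-840 and 10 in the fit without the filter. That last 10 includes *Glrx3*, which lay below the filter. Of the genes named below, *Slc1a4*, *Mat1a*, *Cbs*, *Glrx2*, *Slc25a39*, *Selenop*, *Selenow*, *Selenot*, *Atf4*, *Maff* and *Nfe2l1* lost their call in that fit. Their limma adjusted p there was 0.061 to 0.125.

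Of 8 measured genes of cysteine supply, 4 rose and 1 fell. *Slc1a5*, a neutral amino acid carrier, had means of 4.85 ± 0.24 on the control diet and 5.94 ± 0.15 on alcohol (SD, n = 4) and rose by 1.09 (log2). It passed the filter through the alcohol arrays alone, and its limma adjusted p was 0.00172 in the filtered fit and 0.0124 in the fit without the filter. *Slc3a2*, the heavy chain that partners the cystine carrier, rose by 0.90 (limma adjusted p = 0.00935) and *Slc1a4* by 0.84. *Cbs*, the first enzyme that passes sulfur from homocysteine toward cysteine, fell by 0.33 (limma adjusted p = 0.041). *Mat1a*, which makes S-adenosylmethionine and was named after its values were seen, rose by 0.25. *Slc7a11*, the cystine carrier itself, lay below the filter, and *Cth* had no probe-set of its own. Among 8 genes of cysteine breakdown, *Ethe1*, a mitochondrial persulfide dioxygenase, rose by 0.76 and *Tst*, a thiosulfate sulfurtransferase, fell by 0.60 (limma adjusted p = 0.00582 and 0.0051). Among 11 genes of glutathione breakdown, *Ggt6* was the 1 called.

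Of 8 glutaredoxin and thiol exchange genes, 3 rose and 1 fell. *Glrx*, which uses glutathione to reduce mixed disulfides, rose by 0.87 (log2, limma adjusted p = 0.00757) and its mitochondrial relative *Glrx2* by 0.28, and *Ethe1* is listed here as well. *Glo1*, which detoxifies methylglyoxal with glutathione as cofactor, fell by 1.41 (limma adjusted p = 0.00335). *Gsto1*, an omega class transferase, rose by 0.49 as the 1 call among 6 microsomal, omega, kappa and zeta transferases. Among 5 genes of glutathione transport 3 rose, namely the export pumps *Abcc3* (1.15) and *Abcc2* (0.54) and *Slc25a39* (0.30), which brings glutathione into mitochondria.

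Since *Gpx1*, *Gpx3* and *Gpx4* are selenoproteins, the genes that handle selenium were also counted. Of 7 measured, 2 rose, *Eefsec*, the elongation factor for selenocysteine, by 0.54 (log2, limma adjusted p = 0.00759) and *Selenop*, the plasma selenium carrier, by 0.25 (limma adjusted p = 0.0442). Of 11 other selenoproteins, *Selenow* rose by 0.55 and *Selenot* by 0.35, and *Selenoo* fell by 0.60. Of 12 regulators of glutathione genes, *Atf4* (0.39), *Maff* (0.38) and *Nfe2l1* (0.34) rose, although the groups overlapped for *Nfe2l1*. None of these was called in the fit without the filter (limma adjusted p = 0.125, 0.0751 and 0.111). *Nfe2l2* itself differed by 0.19 ± 0.15 (SE, log2, limma adjusted p = 0.428) and *Keap1*, which marks the Nrf2 protein for destruction, by 0.17 ± 0.10 (limma adjusted p = 0.258), neither of them called.

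**Figure D5:**
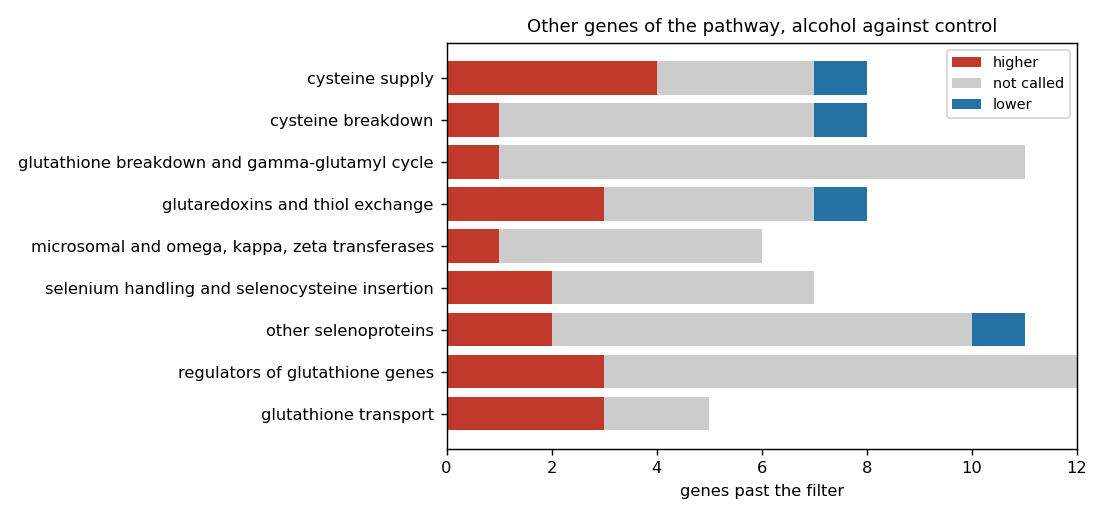
Number of genes past the filter in each of 9 pathway lists, split into higher, not called and lower on alcohol at a limma adjusted p under 0.05. Cysteine supply holds 4 higher genes of 8, transport 3 of 5, and the breakdown list 1 of 11, while the list of other peroxidases has no gene past the filter and is not drawn.

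Among the probe-sets past the filter 1059 were higher and 624 lower on alcohol, so that 62.9% of calls were upward, against 51.8% after a further quantile normalization and 45.1% after median centring. Without 1 array the higher count was 695 (WA-817), 595 (WC-824), 614 (WC-834) or 640 (WC-840), and 819 to 1086 without another array. The lower count was 372 (WC-824) or 362 (WC-840), and 439 to 557 without another array. The 6 calls among the glutathione genes held whichever of the 8 arrays was left out. Arrays correlated at 0.983 to 0.984 within alcohol, 0.984 to 0.987 within control and 0.977 to 0.982 between the diets. Cell type markers were compared between the diets: none of 8 hepatocyte and none of 10 Kupffer cell markers was called. *Alb* had means of 13.49 on the control diet and 13.51 on alcohol. Of 7 sinusoidal endothelial markers 2 were higher (*Lyve1* by 1.23, *Clec4g* by 0.47) and 5 were not called. The summed linear level of that list was 4184 to 4959 on alcohol against 3376 to 3647 on the control diet. That sum is weighted toward *Clec4g*, the marker of highest level, with means of 10.79 on the control diet and 11.26 on alcohol. Among stellate cell markers *Lrat* was higher and *Reln* lower. Of the 2 erythroid markers past the filter, the change of *Alas2* was -2.07 and that of *Tfrc* 1.76. No list marker of neutrophils, T and NK cells, B cells, kidney tubule or olfactory epithelium reached the filter, and the single cholangiocyte and adipocyte markers that did were not called. The part of these differences in the results on glutathione genes was not tested.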

How the data were processed

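Liver RNA of 4 alcohol-fed and 4 pair-fed control mice was hybridized to 1 Affymetrix mouse exon array each. The authors deposited log2 values for 23332 probe-sets, made by RMA in the Affymetrix Expression Console per the labels (version and genome build not given in the sources used here). Genes were read at the unshared probe-set with the highest mean. Probe-sets were ranked by the value of their array in rank 4, without regard to diet, and the upper 10430 were kept, the number that the study kept under a noise filter of its own. Diets were compared in R 4.3.3 with limma 3.58.1 (6 residual degrees of freedom, Benjamini-Hochberg adjusted p). The linear model was tested on simulated data. Changes of pairs of genes were compared with an exact two-sided permutation test over 70 arrangements in SciPy 1.17.1. All members, up to 4 called genes per list with the largest change, and the 3 genes closest in pattern to each member were named. The members and lists were chosen with earlier results of these data known. The number of arrays limits the precision. Alternatives covered the filter, scaling, variance model, array weights, call limits, mean over probe-sets and leaving out each mouse. Motifs were searched in RefSeq windows by exact letters on both strands.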

Additional observations from a re-analysis of the deposited data

Results flagged for a closer look

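Each probe-set was examined for a mouse that stood apart from the other 3 of its diet by Dixon's gap over range at its 95% critical value, in 18 groups of 4 mice. In 1 of them a mouse stood apart: WC-834 read 10.374 for the probe-set shared by *Gclm* and *Ppia*, below the next control at 10.511, with a gap of 0.904 of the range. Chance alone places about 1 in 20 such groups past this limit.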

How the results depend on the processing

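All 6 calls among the glutathione genes held in the fit without the filter, after quantile normalization or median centring, with an intensity trend, robust variance, no moderation, array weights or the mean over probe-sets, and without each mouse. A filter on the mean removed *Gpx6*, which left 0 lower, and the study's limits left 2 higher. The probe-set shared by *Gclm* and *Ppia* passed with an intensity trend (adjusted p = 0.0353) and without WA-811 (adjusted p = 0.0347). Over all probe-sets the counts higher and lower were 488 and 285 without the filter and 105 and 79 at the study's limits, and 382 were lower without moderation. Among other pathway genes 10 were higher without the filter, 7 lower after quantile normalization, and 2 higher and 2 lower at the study's limits. Leaving out each mouse gave 595 to 1086 probe-sets higher and 362 to 557 lower, and 10 to 19 other pathway genes higher and 3 to 5 lower. The difference in change of *Gpx3* and *Gpx1* ranged from -0.02 to 0.28 and was -0.0176 without WA-836. With 4 pairs no pair that separates alone can pass the threshold, and with a mouse left out none can, by construction. No paired analysis was possible because the mice share no replicate numbers across diets. The cause of these shifts was not tested.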
